A study of Mus musculus with 11 samples.

Results

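The genes described here are 9 markers of the fetal liver, the bile duct and the hepatic progenitor cell, taken by name: Afp, Gpc3, H19, Krt7, Krt8, Krt18, Krt19, Sox9 and Epcam. They are 9 of the 55416 gene identifiers in the table. Polyadenylated RNA was sequenced from EC4, a mouse liver cancer cell line, with 1 value per gene in each of 11 libraries. The cells carry the genotype label MYC on or MYC off, called MYC high and MYC low in the sample names, and spent 24 h in DMEM that held either 200 µM methionine, as the growth medium did, or 10 µM. The groups are MYC high at 200 µM (2 libraries, replicates 2 and 3), MYC low at 200 µM (3), MYC high at 10 µM (3) and MYC low at 10 µM (3). The deposited values hold no replicate 1 of MYC high at 200 µM. All libraries come from 1 cell line, so they stand for 1 tumour line and not for livers, and how MYC was switched is not given in the sources used here.

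Liver parenchyma and bile duct epithelium descend from a common fetal progenitor, the hepatoblast. Hepatoblasts make alpha-fetoprotein (Afp), the growth-modulating proteoglycan glypican 3 (Gpc3) and the imprinted noncoding RNA H19, all of which fall silent in the adult liver and can return in liver cancer. Cells that turn to the biliary fate switch on the transcription factor Sox9 and the keratins 7 and 19, whereas keratins 8 and 18 are the filament pair of the hepatocyte itself and are kept in bile ducts. Keratins are built as pairs of a type II chain (Krt7, Krt8) with a type I chain (Krt18, Krt19). Epcam, a cell surface adhesion molecule, marks progenitors and bile ducts.

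Of the 9 genes, 6 were well enough expressed to be tested and 3 were not. A gene was tested when its mean over the libraries was at least 10 normalized counts, which are reads divided by a size factor of the library, and 12909 genes were. Krt8, Krt18 and Krt19 had 93022, 60297 and 84409 reads over all libraries. Afp had 2016, Sox9 1400 and Krt7 461. Gpc3 and Epcam had 0 reads in each of 11 libraries, which allows up to 3 reads, or 2.65 to 3.43 normalized counts, in a library, and they were not detectable at this depth. H19 had 3 reads in all, 1 in each library of MYC high at 200 µM and 1 in a library of MYC low at 10 µM. The 6 tested genes are those that passed a filter on the mean level, so their count describes this line and is not a share of responders among all 9.

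Depth was 10858936 to 13085689 reads per library, and replicates correlated across genes at a Pearson r of at least 0.993. Mature hepatocyte markers were nearly absent: of 27 matched, 16 had 0 reads in every library, Alb and Cyp3a11 among them, and Rbp4 (the retinol carrier) was the only one that passed the filter. Albumin and the 3 fibrinogen genes gave no read, while Afp and the simple keratins were present. The mouse gene Myc (ENSMUSG00000022346) stood at 2089 ± 106 normalized counts in MYC high libraries (SD, n = 2) and 1136 ± 31.3 in MYC low (SD, n = 3) at 200 µM, but at 336 ± 39.2 and 336 ± 13.5 at 10 µM (SD, n = 3 each). Whether its count includes the MYC that was switched is not given. The MYC states at 10 µM thus rest on the labels, and the equal counts there do not say that MYC was equal. The labels do not say that replicates are separate cultures, and the p-values cover only the spread among these libraries, which may be technical.

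The keratin genes Krt7, Krt8 and Krt18 lie on the same chromosome. As described below, Krt7 and Krt8 changed in the same direction in each comparison of groups, while Krt18 did not always follow. The start regions of these keratin genes are shown with that of Afp, which was the one member higher in MYC high cells in both media. Each holds 250 bases before and 30 bases after the annotated start in RefSeq on GRCm38.p6, read along the gene's strand, a build other than the GRCm39 named in the submitters' processing notes. Capitals mark the letters of the motifs searched.
Afp (chr5:90490464-90490743, plus strand): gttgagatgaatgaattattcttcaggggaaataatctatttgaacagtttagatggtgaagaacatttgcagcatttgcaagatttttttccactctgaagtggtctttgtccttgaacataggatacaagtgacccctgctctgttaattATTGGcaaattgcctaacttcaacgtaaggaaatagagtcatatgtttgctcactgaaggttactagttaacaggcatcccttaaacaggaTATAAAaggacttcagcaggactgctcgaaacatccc
Krt8 (chr15:102004313-102004592, minus strand): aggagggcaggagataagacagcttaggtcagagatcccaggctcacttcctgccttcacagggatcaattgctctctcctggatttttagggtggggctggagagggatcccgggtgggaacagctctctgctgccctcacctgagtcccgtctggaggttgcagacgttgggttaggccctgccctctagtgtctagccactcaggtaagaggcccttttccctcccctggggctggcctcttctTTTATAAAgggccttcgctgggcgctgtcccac
Krt18 (chr15:102027966-102028245, plus strand): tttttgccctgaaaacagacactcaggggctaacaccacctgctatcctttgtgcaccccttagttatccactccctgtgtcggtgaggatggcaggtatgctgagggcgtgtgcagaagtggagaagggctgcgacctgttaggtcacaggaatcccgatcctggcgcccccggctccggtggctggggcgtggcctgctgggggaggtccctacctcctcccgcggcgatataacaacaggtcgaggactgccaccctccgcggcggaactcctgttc
Krt7 (chr15:101412153-101412432, plus strand): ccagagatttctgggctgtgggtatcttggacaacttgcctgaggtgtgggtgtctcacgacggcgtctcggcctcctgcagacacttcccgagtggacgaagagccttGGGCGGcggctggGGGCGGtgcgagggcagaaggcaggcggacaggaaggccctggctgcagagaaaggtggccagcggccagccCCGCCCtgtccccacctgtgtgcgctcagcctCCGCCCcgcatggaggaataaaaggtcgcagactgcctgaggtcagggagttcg
Promoters were listed for 6 of the 9 genes (these 4, Gpc3 and Epcam). The search covered both strands of the 300 bases. Its motifs were the E-box bound by MYC and MAX (CACGTG), the TATA box (TATAAA), the AP-1 site (TGANTCA), the TEAD site (GGAATG), the box named CCAAT by its letters, and the GC box (GGGCGG). The TATA letters were found in Afp and Krt8, where a match on each strand overlapped, against 13.6% of all 32851 promoters. Afp also held CCAAT on the opposite strand, a motif in 37.4% of promoters. Krt7 held GGGCGG 4 times, 2 on each strand, against 35.7% of promoters with at least 1. Krt18 held none of the motifs. CACGTG was found in Epcam alone among the 6, against 7.15% of promoters. The AP-1 and TEAD letters, in 7.81% and 14.7% of promoters, were in 0 of the 6. A match describes letters only, and a missing match says only that these letters are not in the window.

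**Figure D1:**
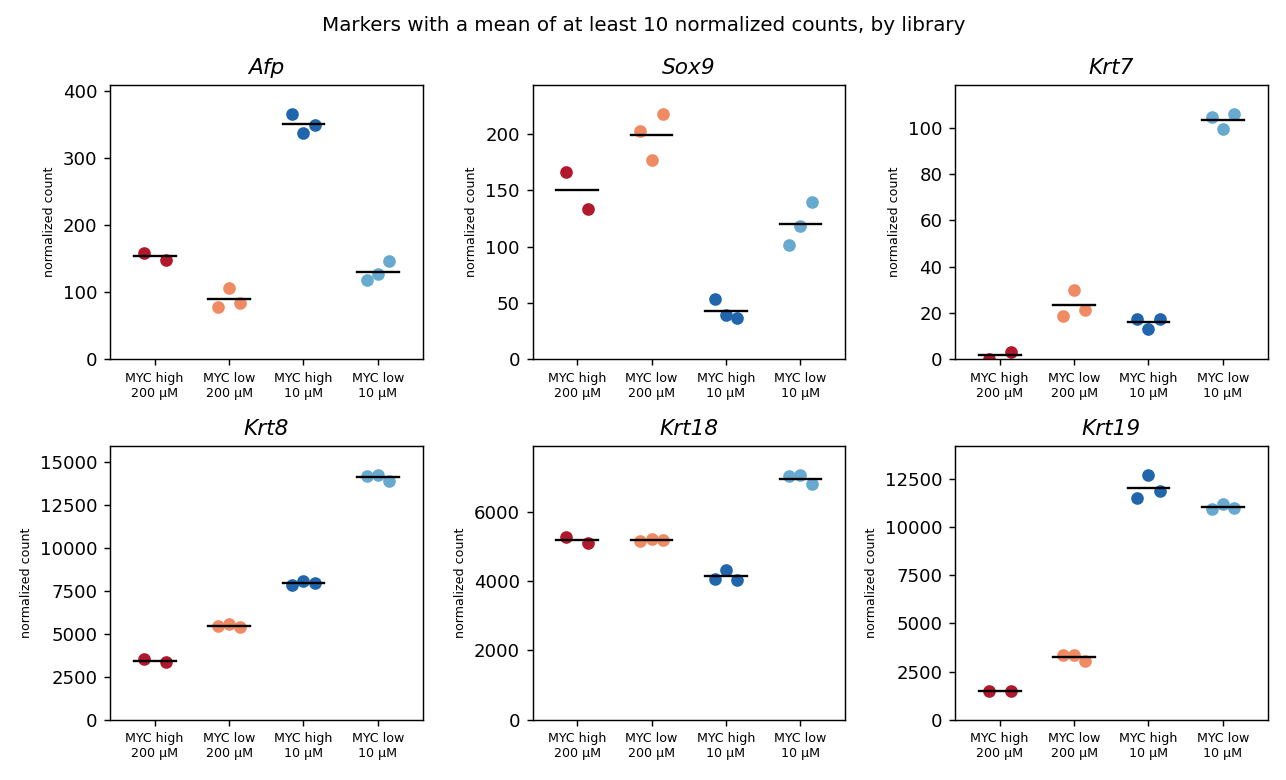
Normalized counts (vertical axes, from 0) of the 6 tested genes in each of the 11 libraries (points), by MYC state and methionine (horizontal axis), with group means as bars. Afp was highest in the 3 libraries of MYC high at 10 µM, Sox9 lowest there, Krt7 and Krt8 highest in MYC low at 10 µM, and Krt19 stood at 10945 to 12684 in all libraries at 10 µM.

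Afp, the fetal counterpart of albumin, was higher with MYC high than with MYC low in both media and rose at 10 µM in both states. Afp (ENSMUSG00000054932) stood at 159 and 149 normalized counts in MYC high at 200 µM, and at 78.0, 106 and 83.2 in MYC low at 200 µM. At 10 µM it stood at 366, 337 and 349 in MYC high and at 118, 127 and 146 in MYC low. No 2 groups overlapped, though the highest MYC low library at 10 µM (146) lay just under the lowest MYC high library at 200 µM (149). The order from low to high was MYC low at 200 µM, MYC low at 10 µM, MYC high at 200 µM and MYC high at 10 µM. In bulk RNA, more cells with Afp and more Afp RNA per cell cannot be told apart. All p-values below are adjusted over the 12909 genes tested with limma on log2 of the normalized count plus 1, a scale that understates the change of low genes.

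Afp was 1.72-fold higher in MYC high at 200 µM (log2 difference 0.79, SE 0.127, adjusted p = 8.32e-07). At 10 µM its MYC difference was 2.69-fold (1.43, SE 0.113, adjusted p = 6.32e-14), and 345 of the 12909 genes had a positive difference at least as large. The drop to 10 µM went with a 2.28-fold rise in MYC high (1.19, SE 0.127, adjusted p = 1.26e-10) and a 1.46-fold rise in MYC low cells (0.55, SE 0.113, adjusted p = 7.45e-05). The rise was larger in MYC high cells, by 0.64 on the log2 scale (interaction, SE 0.170, 95% interval 0.29 to 0.98, adjusted p = 0.00152).

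Afp was the only one of the 3 oncofetal members with more than 3 reads. H19 and Gpc3 thus give no comparison, and Igf2, the imprinted fetal growth factor whose gene lies beside H19, also had 0 reads in every library. The miRNA gene Mir675 inside H19 had 0 reads, though polyadenylated RNA libraries do not capture mature miRNAs. The level of Afp per transcript length was low beside the keratins: 170 ± 6.93 normalized counts per kb in MYC high at 10 µM, its highest group, against 4079 ± 60.7 for Krt8 there (SD, n = 3 each).

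Sox9, the transcription factor of the ductal plate and of biliary progenitors, was lowest in the group where Afp was highest and highest where Afp was lowest. Sox9 (ENSMUSG00000000567) stood at 203, 177 and 218 normalized counts in MYC low at 200 µM and at 167 and 134 in MYC high at 200 µM. In 10 µM medium the level was 101, 119 and 139 in MYC low and 53.0, 39.5 and 36.5 in MYC high. The 3 libraries of MYC high at 10 µM lay far below the others, while MYC high at 200 µM (134 to 167) and MYC low at 10 µM (101 to 139) overlapped. At 10 µM Sox9 was 2.79-fold lower in MYC high cells (log2 −1.46, SE 0.144, adjusted p = 1.82e-11). At 200 µM it was 1.33-fold lower (−0.41, SE 0.161, adjusted p = 0.0222), a call that was lost when any 1 of 3 libraries was left out: −0.25 without MYC high replicate 3 (adjusted p = 0.267), −0.34 without MYC low replicate 3 (adjusted p = 0.0904) and −0.39 without MYC low replicate 1 (adjusted p = 0.0538).

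Less methionine went with less Sox9 in both states. The level fell 3.50-fold in MYC high (log2 −1.79, SE 0.161, adjusted p = 1.38e-12), where 236 genes, Sox9 included, fell at least as much, and 1.66-fold in MYC low cells (−0.74, SE 0.144, adjusted p = 3.34e-05). The fall was larger in MYC high cells by 1.06 on the log2 scale (interaction −1.06, SE 0.216, 95% interval −1.49 to −0.62, adjusted p = 6.61e-05). Epcam, the surface marker usually found with Sox9 on biliary progenitors, had no read in any library.

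Krt8, the type II keratin of simple epithelia, was lower in MYC high cells in both media and rose at 10 µM in both states. Krt8 (ENSMUSG00000049382) stood at 3556 and 3337 normalized counts in MYC high at 200 µM and at 5465, 5577 and 5423 in MYC low at 200 µM. With 10 µM it was at 7874, 8111 and 7979 in MYC high and at 14177, 14255 and 13915 in MYC low. The 4 groups lay apart, each far beyond its own spread. Krt8 was 1.59-fold lower in MYC high at 200 µM (log2 −0.67, SE 0.033, adjusted p = 2.71e-20) and 1.77-fold lower at 10 µM (−0.82, SE 0.029, adjusted p = 1.33e-24).

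At 10 µM Krt8 rose 2.32-fold in MYC high (log2 1.21, SE 0.033, adjusted p = 1.98e-28) and 2.57-fold in MYC low cells (1.36, SE 0.029, adjusted p = 6.23e-31). These rises differed by −0.15 (interaction, SE 0.044, adjusted p = 0.00342), and by −0.10 (adjusted p = 0.0579) without MYC high replicate 2 at 200 µM. An annotated noncoding gene on the opposite strand, Gm36026, shares exon sequence with Krt8, and without a stated strand setting the reads of the pair cannot be told apart. Gm36026 stood at 276 ± 2.65, 421 ± 0.688, 610 ± 29.3 and 1086 ± 42.3 normalized counts in MYC high and MYC low at 200 µM and MYC high and MYC low at 10 µM (SD, n = 2, 3, 3 and 3). It held 7159 reads beside the 93022 of Krt8. The processed pseudogene Krt8-ps held 240.

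Krt18, the type I partner of Krt8, changed in the direction of Krt8 in 2 of the 4 comparisons, between MYC states at 10 µM and with methionine in MYC low cells. Krt18 (ENSMUSG00000023043) stood at 5268 and 5094 normalized counts in MYC high and at 5168, 5206 and 5176 in MYC low at 200 µM, where the groups overlapped. The libraries at 10 µM held 4066, 4329 and 4026 in MYC high and 7022, 7058 and 6790 in MYC low. The difference between MYC states at 200 µM was −0.00066 on the log2 scale with a 95% interval from −0.071 to 0.070 (adjusted p = 0.987). Scaling to total reads gave −0.087 there (adjusted p = 0.0208), the single setting that made this a call. At 10 µM Krt18 was 1.68-fold lower in MYC high cells (log2 −0.75, SE 0.031, adjusted p = 2.05e-22).

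The Krt18 response to methionine had opposite directions in the MYC states. It fell 1.25-fold at 10 µM in MYC high (log2 −0.32, SE 0.035, adjusted p = 1.37e-10) and rose 1.34-fold in MYC low cells (0.42, SE 0.031, adjusted p = 1.62e-14). The responses differed by −0.75 (interaction, SE 0.047, 95% interval −0.84 to −0.65, adjusted p = 2.28e-16).

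Krt19, the smallest keratin and the classical bile duct marker, had the largest methionine response of the well expressed members. Krt19 (ENSMUSG00000020911) stood at 1485 and 1468 normalized counts in MYC high and at 3349, 3371 and 3034 in MYC low at 200 µM. At 10 µM it was found at 11510, 12684 and 11870 in MYC high and at 10945, 11160 and 10973 in MYC low. Every library at 10 µM lay above every library at 200 µM, and the MYC states did not overlap in either medium. It rose 8.14-fold in MYC high (log2 3.02, SE 0.039, adjusted p = 3.19e-38), where 139 of the 12909 genes rose at least as much. In MYC low cells it rose 3.39-fold (1.76, SE 0.035, adjusted p = 9.58e-32), where 121 genes did. The rise was larger in MYC high cells by 1.26 on the log2 scale (interaction, SE 0.053, 95% interval 1.15 to 1.37, adjusted p = 1.83e-21).

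The MYC difference of Krt19 thus depended on the medium. At 200 µM Krt19 was 2.20-fold lower in MYC high cells (log2 −1.14, SE 0.039, adjusted p = 1.01e-24). At 10 µM it was 1.09-fold higher (0.12, SE 0.035, adjusted p = 0.00217), and this small difference was 0.066 with scaling to total reads (adjusted p = 0.0845).

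Krt7, the type II keratin of bile ducts, was scarce and was highest in MYC low cells at 10 µM. Krt7 (ENSMUSG00000023039) had 0 and 3 reads in MYC high at 200 µM, or 0 and 3.18 normalized counts, and 18.5, 29.7 and 21.3 normalized counts in MYC low at 200 µM. At 10 µM the counts were 17.3, 13.2 and 17.2 in MYC high and 105, 99.6 and 106 in MYC low. MYC high at 10 µM lay just under MYC low at 200 µM, without overlap. From pooled reads, MYC low exceeded MYC high at 200 µM by 14.0-fold, with an exact 95% counting interval of 4.59 to 69.4 (log2 −3.54, SE 0.376, adjusted p = 1.16e-10 with limma). At 10 µM Krt7 was 6.51-fold lower in MYC high cells (−2.64, SE 0.336, adjusted p = 8.67e-09).

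Krt7 rose at 10 µM in both states. In MYC low cells it rose 4.47-fold (log2 2.14, SE 0.336, adjusted p = 9.61e-07), where 71 genes rose at least as much. In MYC high cells the ratio of pooled reads was 9.63 with a counting interval of 3.10 to 48.4 (log2 3.04, SE 0.376, adjusted p = 3.83e-09). Leaving out MYC high replicate 2 or 3 at 200 µM moved this log2 value to 2.004 or 4.07, and that between MYC states at 200 µM to −2.50 or −4.57, and all 4 kept their call. With 5 or 0.5 counts added the values were 1.70 or 3.58 and −2.12 or −4.10. The antisense gene Gm671, whose exons overlap those of Krt7, held 24 reads beside 461. With 3 reads in 1 group the log2 values depend on the added constant. The interaction was 0.90 (adjusted p = 0.123) with 1 count added, 1.42 (adjusted p = 0.0433) with 0.5 and −0.26 (adjusted p = 0.503) with 5. It was −0.13 (adjusted p = 0.803) without MYC high replicate 2 at 200 µM and 1.93 (adjusted p = 2.66e-04) without replicate 3, so whether the Krt7 response differed between states was not settled at this depth.

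**Figure D2:**
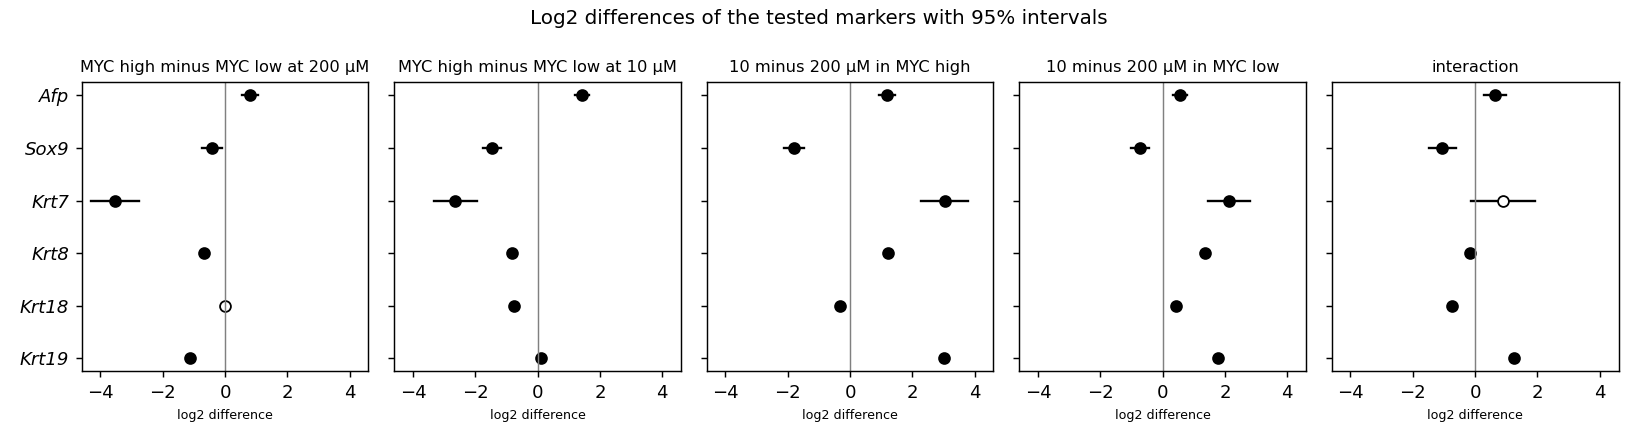
Log2 differences (horizontal axes) of the 6 tested genes (vertical axis) in the 4 comparisons of groups and in the interaction (the log2 response to 10 µM with MYC high less the one with MYC low). Lines are 95% intervals, filled points have an adjusted p under 0.05 and open points do not: Krt18 between MYC states at 200 µM (−0.00066) and the Krt7 interaction (0.90).

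Counted together, 5 of 6 tested members differed between MYC states at 200 µM, where 74.4% of all genes passed the same threshold. Of these 1 was higher in MYC high cells (Afp; 36.8% of genes) and 4 were lower (37.6%). At 10 µM all 6 differed (71.5% of genes), 2 higher (Afp and Krt19; 35.7%) and 4 lower (35.8%). All 6 responded to methionine in MYC high cells (75.8%), 4 up (37.9%) and 2 down (Krt18 and Sox9; 37.9%). All 6 also did in MYC low cells (59.4%), 5 up (29.4%) and 1 down (Sox9; 29.9%). The interaction passed in 5 of 6 (60.4%), 2 positive (31.0%) and 3 negative (29.4%). Passing was common in these data, so these shares say little about the members.

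Differences of at least 2-fold were rarer. Between MYC states at 200 µM, 2 members were lower by that much and 0 higher, against 12.1% and 6.79% of genes, or 18.9% in both directions. At 10 µM, 2 were lower and 1 higher, against 7.92% and 6.41%, or 14.3% together. With 10 µM methionine 4 members rose at least 2-fold in MYC high cells (Afp, Krt7, Krt8 and Krt19) and 1 fell (Sox9), against 13.0% and 9.18%, or 22.1% together. In MYC low cells 3 rose as much (Krt7, Krt8 and Krt19) and 0 fell, against 3.39% and 2.17%, or 5.56% together. The interaction was that large and positive in 1 member (Krt19) and negative in 1 (Sox9), against 8.09% and 4.75%, or 12.8% together. The median log2 methionine difference of the 6 was 1.20 with MYC high and 0.96 with MYC low, against −0.0039 and 0.0011 over all genes. Comparisons that share a group of libraries are not independent.

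Because the 4 keratins assemble in pairs, their RNA levels were also compared per kb of transcript. At 200 µM Krt18 was the most abundant, at 3606 ± 85.5 normalized counts per kb in MYC high libraries (SD, n = 2) and 3607 ± 13.9 in MYC low (SD, n = 3). Krt8 then stood at 1760 ± 79.1 and 2803 ± 40.8, and Krt19 at 937 ± 7.64 and 2063 ± 120. In MYC high at 10 µM Krt19 led with 7628 ± 382 per kb (SD, n = 3), above Krt8 at 4079 ± 60.7 and Krt18 at 2881 ± 115. In MYC low at 10 µM Krt8 (7209 ± 90.9) and Krt19 (6996 ± 74.3) were close and Krt18 stood at 4841 ± 101 (SD, n = 3 each). Krt7 did not exceed 25.3 ± 0.815 per kb in any group, the mean of MYC low at 10 µM (SD, n = 3).

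The RNA of the type I keratins thus changed in make-up, while protein was not measured. Krt19 made up 20.4% and 20.8% of the summed Krt18 and Krt19 level per kb in the libraries of MYC high at 200 µM and 36.4% ± 1.33 in MYC low at 200 µM (SD, n = 3). At 10 µM its share was 72.6% ± 0.436 in MYC high and 59.1% ± 0.439 in MYC low (SD, n = 3 each). The ratio of Krt8 to Krt18 per kb was 0.488 ± 0.0104 in MYC high libraries (SD, n = 2) and 0.777 ± 0.00873 in MYC low (SD, n = 3) at 200 µM. At 10 µM it was 1.42 ± 0.0400 and 1.49 ± 0.0127 (SD, n = 3 each). The summed RNA level of type I over type II keratins stayed between 1.63 and 2.67 in all 11 libraries. This ratio was lower in MYC low (1.64 ± 0.00709 at 10 µM, SD, n = 3) than in MYC high libraries (2.57 ± 0.0829, SD, n = 3). Together the 4 keratins took 0.0813% ± 0.00257 of reads in MYC high at 200 µM (SD, n = 2), 0.119% ± 0.00208 in MYC low at 200 µM, 0.201% ± 0.00613 in MYC high at 10 µM and 0.279% ± 0.00305 in MYC low at 10 µM (SD, n = 3 each). These ratios use 1 transcript length per gene and were not tested.

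**Figure D3:**
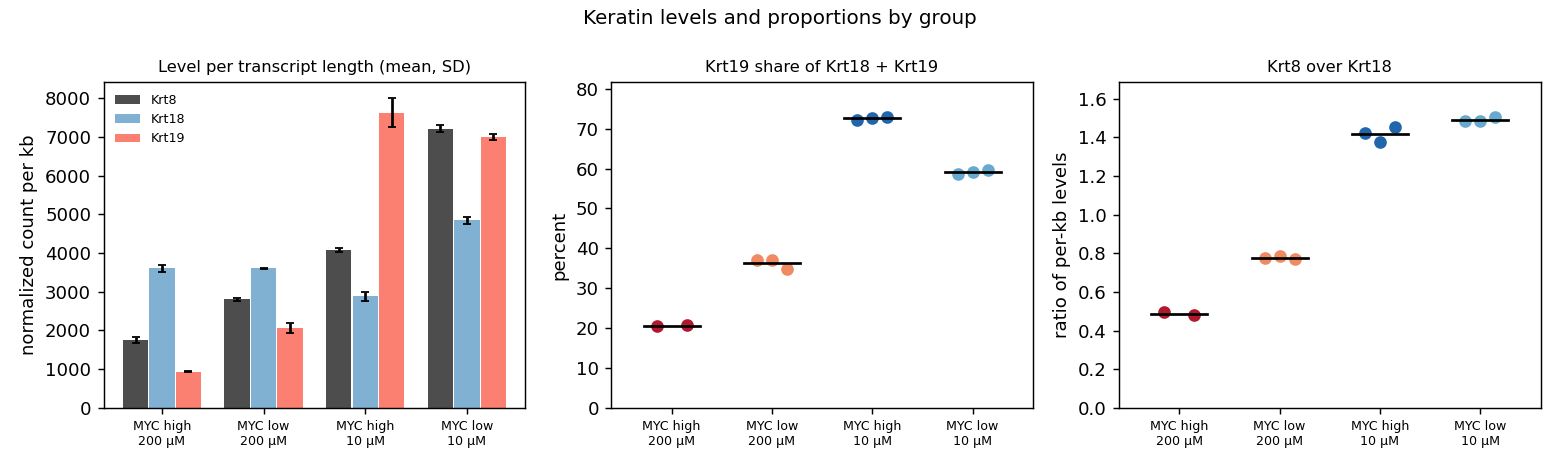
Left, normalized counts per kb (vertical axis) of Krt8, Krt18 and Krt19 by group, as means with SD. Middle and right, the percentage of Krt19 in the summed Krt18 and Krt19 level and the ratio of Krt8 to Krt18 in each library (points, with group means as bars), where the Krt19 share was 20.4% to 20.8% in MYC high at 200 µM and 72.1% to 72.9% in MYC high at 10 µM.

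The wider lists of the 2 programmes are given as counts. Of 20 oncofetal and imprinted fetal growth genes 12 were tested, Afp among them, and 6 had no read in any library (Gpc3, Igf2, Lin28a, Sall4, Plagl1 and Cdkn1c). In each medium 8 were higher and 3 lower in MYC high cells, with a median log2 difference of 0.73 at 200 µM and 0.86 at 10 µM, against −0.0031 and 0.0015 over all genes. Without Afp, 7 of 11 were higher and 3 lower in each medium, with medians of 0.67 and 0.58. Over all genes 36.8% were higher and 37.6% lower at 200 µM, and 35.7% and 35.8% at 10 µM. Hmga1, a chromatin architectural protein of fetal tissue and tumours, was higher in MYC high cells at 10 µM (log2 1.96, SE 0.042, adjusted p = 1.63e-31). Igf2bp3, a fetal RNA-binding protein, was higher at 200 µM (1.59, SE 0.142, adjusted p = 1.46e-12). Peg3, an imprinted zinc finger gene, was lower at 10 µM (−1.60, SE 0.031, adjusted p = 5.82e-33). Less methionine went with 5 higher and 6 lower in MYC high cells (median −0.15), where 37.9% of all genes rose and 37.9% fell. In MYC low cells 6 were higher and 3 lower (median 0.091), where 29.4% and 29.9% of all genes did so. Without Afp, 4 were higher and 6 lower in MYC high (median −0.16) and 5 higher and 3 lower in MYC low cells (median 0.034).

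Peg10, an imprinted gene of retrotransposon origin, stood out in that list. Peg10 stood at 1603 ± 98.0 normalized counts in MYC high libraries (SD, n = 2) and 1600 ± 115 in MYC low at 200 µM (SD, n = 3), and at 24543 ± 1184 and 8101 ± 348 at 10 µM (SD, n = 3 each). Its rise was 3.94 on the log2 scale in MYC high (SE 0.046, adjusted p = 9.22e-40) and 2.34 in MYC low cells (SE 0.041, adjusted p = 1.55e-33).

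Of 29 biliary and hepatic progenitor genes 18 were tested, Krt7, Krt19 and Sox9 among them. With MYC high, 14 were lower and 3 higher at 200 µM (median log2 −0.99), and 15 lower and 2 higher at 10 µM (median −1.27). Without Krt7, Krt19 and Sox9, 11 of 15 were lower and 3 higher at 200 µM (median −0.96). At 10 µM 13 of these were lower and 1 higher (median −1.25). Over all genes 37.6% were lower and 36.8% higher at 200 µM, and 35.8% and 35.7% at 10 µM. Tspan8, a tetraspanin of the epithelial surface, was lower in MYC high cells at 200 µM (−3.49, SE 0.251, adjusted p = 3.58e-15) and at 10 µM (−1.28, SE 0.225, adjusted p = 4.19e-06). MYC high at 200 µM held only 19 reads of it, at 4.24 and 17.1 normalized counts, against 109 ± 15.5 in MYC low (SD, n = 3). The size at 200 µM thus depends on the added constant and on single libraries. At 10 µM against 200 µM, 9 rose and 6 fell in MYC high cells (median 0.057) and 11 rose and 5 fell in MYC low cells (median 0.35). Without the members, 7 rose and 5 fell in MYC high (median 0.022) and 9 rose and 4 fell in MYC low cells (median 0.25). Of all genes 37.9% rose and 37.9% fell in MYC high cells, and 29.4% and 29.9% in MYC low cells. Anxa13, an annexin of apical membranes, rose in MYC high cells (2.51, SE 0.157, adjusted p = 5.74e-17) and less in MYC low cells (1.26, SE 0.141, adjusted p = 7.55e-10). Lgr5, the Wnt-responsive progenitor receptor, stood at 55.5 ± 2.54 normalized counts in MYC high libraries (SD, n = 2) and 10.2 ± 1.29 in MYC low (SD, n = 3) at 200 µM, and at 17.9 ± 2.60 and 60.7 ± 8.77 at 10 µM (SD, n = 3 each). It rose at 10 µM in MYC low cells (2.46, SE 0.237, adjusted p = 2.43e-11) and fell in MYC high cells (−1.59, SE 0.265, adjusted p = 1.65e-06). The responses differed by −4.04 (interaction, SE 0.356, adjusted p = 2.81e-12). Between MYC states Lgr5 was higher in MYC high cells at 200 µM (2.34, SE 0.265, adjusted p = 5.75e-10) and lower at 10 µM (−1.70, SE 0.237, adjusted p = 5.70e-08). Tnfrsf12a, the TWEAK receptor of progenitor cells, fell at 10 µM in MYC high cells (−2.17, SE 0.053, adjusted p = 8.79e-30) and less in MYC low cells (−0.87, SE 0.047, adjusted p = 3.02e-18).

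Among 20 regulators of fetal liver genes, 14 were tested. Zhx2 and Zbtb20 are known repressors of Afp in the liver after birth. Zhx2 stood at 550 ± 52.1 normalized counts in MYC high libraries (SD, n = 2) and 327 ± 4.63 in MYC low (SD, n = 3) at 200 µM, and at 147 ± 11.1 and 157 ± 10.4 at 10 µM (SD, n = 3 each). It fell at 10 µM by 1.90 on the log2 scale in MYC high (SE 0.098, adjusted p = 1.52e-19) and by 1.06 in MYC low cells (SE 0.087, adjusted p = 4.02e-13). Zbtb20 stood at 775 ± 119 in MYC high libraries (SD, n = 2) and 1315 ± 149 in MYC low (SD, n = 3) at 200 µM, and at 448 ± 45.5 and 1315 ± 49.3 at 10 µM (SD, n = 3 each). It fell by 0.79 in MYC high cells (SE 0.077, adjusted p = 1.56e-11) and its difference in MYC low cells was 0.0052 (SE 0.069, adjusted p = 0.954).

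Afp was higher in MYC high cells at 200 µM, where Zhx2 was also higher (log2 0.74, SE 0.098, adjusted p = 1.55e-08) and Zbtb20 lower (−0.76, SE 0.077, adjusted p = 3.44e-11). At 10 µM, where Afp was again higher, Zbtb20 was lower (−1.56, SE 0.069, adjusted p = 1.77e-21). The Zhx2 difference there was −0.094 (SE 0.087, adjusted p = 0.339). The part of either gene in the Afp levels was not tested. Gata4, a transcription factor of the early liver bud, fell at 10 µM in MYC high cells (−1.74, SE 0.067, adjusted p = 2.15e-23) and less in MYC low cells (−0.61, SE 0.060, adjusted p = 4.59e-11). Cebpa, which drives hepatocyte maturation, rose at 10 µM in both states. With MYC high it went from a low level of 12.1 ± 0.635 (SD, n = 2) to 47.0 ± 6.38 normalized counts (SD, n = 3), which is 1.86 on the log2 scale (SE 0.248, adjusted p = 1.85e-08). With MYC low it went from 19.4 ± 0.0727 to 68.0 ± 14.4 (SD, n = 3 each), which is 1.73 (SE 0.222, adjusted p = 1.59e-08). The Cebpa interaction was 0.13 (SE 0.332, adjusted p = 0.757). Over the list, 9 fell and 2 rose in MYC high cells (median −0.70), 6 fell and 3 rose in MYC low cells (median −0.042), and the interaction was negative in 10 and positive in 1 of 14. Over all genes 37.9% fell and 37.9% rose in MYC high cells, 29.9% and 29.4% in MYC low cells. The interaction was negative in 29.4% of all genes and positive in 31.0%.

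Notch signalling and the Hippo effector YAP are known to promote Sox9 and the biliary fate. Of 25 genes of these pathways 21 were tested. The list mixes inhibitors of YAP with its effectors and targets, so the counts below do not measure the activity of either pathway. With MYC high, 13 were lower and 6 higher at 200 µM (median log2 −0.57), and 14 lower and 5 higher at 10 µM (median −0.71). Of all genes 37.6% were lower and 36.8% higher at 200 µM, and 35.8% and 35.7% at 10 µM. Less methionine went with 16 lower and 4 higher in MYC high (median −0.56) and with 10 lower and 4 higher in MYC low cells (median −0.15), where 37.9% and 37.9% of all genes, and 29.9% and 29.4%, were lower and higher. Jag1, the Notch ligand of bile duct formation, stood at 849 ± 15.7 normalized counts in MYC high libraries (SD, n = 2) and 2768 ± 49.9 in MYC low (SD, n = 3) at 200 µM, and at 410 ± 3.31 and 1969 ± 38.3 at 10 µM (SD, n = 3 each). It was lower in MYC high cells at 10 µM by −2.26 (SE 0.041, adjusted p = 6.37e-34). The YAP targets Ccn1 (−2.60, SE 0.047, adjusted p = 8.86e-34) and Ccn2 (−3.71, SE 0.138, adjusted p = 6.82e-24) were also lower there, while Yap1 itself was higher (0.16, SE 0.035, adjusted p = 1.30e-04). Ccn1 and Ccn2 were named for the size of their differences, and other YAP targets in the list are not described singly. Nrarp, a Notch feedback gene, rose at 10 µM in MYC high cells (2.25, SE 0.335, adjusted p = 1.85e-07), against most of the list. It rose from 4 reads in each library at 200 µM, or 4.41 ± 0.231 normalized counts (SD, n = 2), to 25.4 ± 7.06 (SD, n = 3). With so few reads this log2 value depends on the added constant. In MYC low cells its difference was 0.46 (SE 0.300, adjusted p = 0.191).

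**Figure D4:**
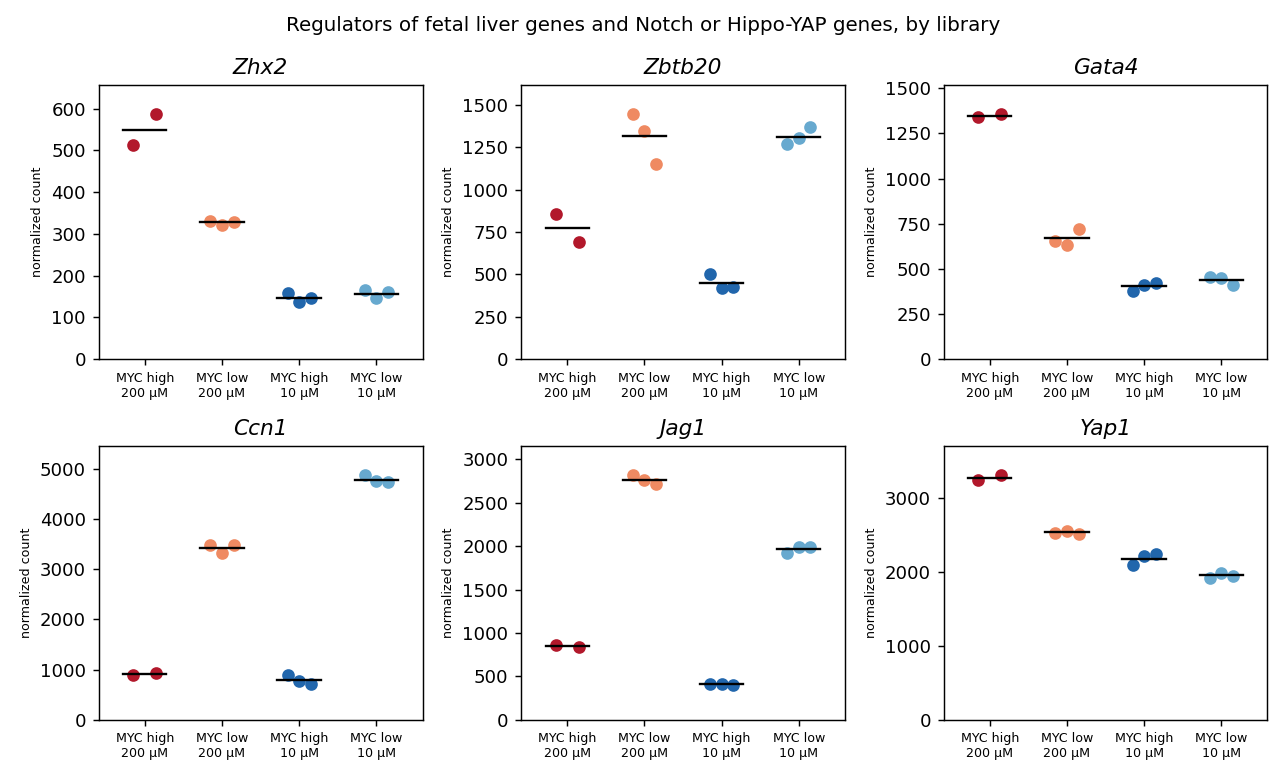
Normalized counts (vertical axes, from 0) of Zhx2, Zbtb20, Gata4, Ccn1, Jag1 and Yap1 in each library (points), by MYC state and methionine (horizontal axis), with group means as bars. Zhx2 was highest in MYC high at 200 µM (550) and Jag1 lowest in MYC high at 10 µM (410).

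Markers of other cell types were checked beside these levels. Of 12 fibroblast and stellate cell markers 0 passed the filter, 5 had no read, Dcn and Lrat among them, and their summed level ran from 3.18 to 7.998 normalized counts in MYC high and 7.74 to 14.3 in MYC low at 200 µM, and from 14.3 to 30.4 and 12.3 to 19.9 at 10 µM. Of 8 endothelial markers 0 passed, with sums of 3.18 to 7.998, 2.05 to 3.87, 3.04 to 5.09 and 0.904 to 4.41 in the same order. Of 10 macrophage and blood cell markers 2 passed, Cd68 and Csf1r, and 5 had no read, among them Ptprc, Clec4f and Cd3e. Their summed level was 263 to 286 in MYC high and 482 to 533 in MYC low at 200 µM, and 873 to 908 and 931 to 974 at 10 µM, so that its ranges at 10 µM lay above those at 200 µM, as those of Krt8 and Krt19 did. Cd68, a lysosomal glycoprotein, rose at 10 µM by 3.97 in MYC high (SE 0.122, adjusted p = 1.80e-26) and by 1.19 in MYC low cells (SE 0.1095, adjusted p = 6.80e-12). Csf1r, the receptor of macrophage colony-stimulating factor, rose by 0.82 in MYC high (SE 0.070, adjusted p = 3.32e-13) and by 0.82 in MYC low cells (SE 0.062, adjusted p = 3.70e-14). Since Ptprc, the pan-leukocyte marker, was at 0 in every library, these levels are given without a cell type. Whether they bear on the members' levels was not tested.

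For each tested member, the genes with the most similar log2 levels over the 11 libraries were listed from those with a mean of at least 100 normalized counts. The libraries form 4 groups, so the likeness is mostly one of group means. Nearest to Afp were Tamm41 (Pearson r = 0.989), Kdm5c (0.987) and Bub1 (0.985). Nearest to Sox9 were Hcfc2 (0.980), Arap2 (0.979) and Egfr (0.979). Krt8 was nearest to Gm36026 (0.997), the gene that overlaps it, then Blk (0.997) and Slc9a3r1 (0.995). Krt18 was nearest to Tpm1 (0.990), Tpst2 (0.988) and Gbf1 (0.988). Krt19 was nearest to Cenpf (0.997), Srebf1 (0.995) and C1qtnf6 (0.995). Krt7 was nearest to Stx2 (0.984), Trim59 (0.983) and Lima1 (0.981). Among the members themselves, Krt8 and Krt19 (0.888) and Krt7 and Krt8 (0.880) were most alike, Krt18 and Krt19 were not (0.049), and Afp and Sox9 ran opposite (−0.930).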

How the data were processed

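The table holds 1 signal value per gene for each of 11 libraries, which the authors deposited as normalized counts, per the labels. Tools listed in the submitters' processing notes are STAR, HTSeq, DESeq2, FastQC, fastp and SAMtools, with the build GRCm39; the sources used here give no versions, annotation release or strand setting. All values (100%) came out as whole reads within 0.001 once multiplied by the library's size factor of 0.875 to 1.13. Columns of other samples numbered 0. Symbols (52083 of 55416 identifiers) and transcript lengths (APPRIS principal transcript, else the longest basic one) came from GENCODE M21 on GRCm38. That annotation also gave which genes overlap a member; no coordinates of it are printed.

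For genes with a mean of at least 10, log2(value + 1) was fitted by limma 3.58.1 (R 4.3.3) with a mean for each group and a variance trend. Residual degrees of freedom were 7 and prior ones 29.0, and p-values were adjusted by Benjamini-Hochberg, at a threshold of 0.05. The 2 libraries of MYC high at 200 µM are assumed to vary like the others. The fit was tested on simulated data. A floor of 3 reads for a count of 0 and the exact 95% intervals cover counting error only. Replicates differed by more than sampling noise (chi-square per gene 1.40 to 2.67) and each was counted as a sample. Same-numbered libraries did not deviate together: 0 of 15 pairs had a correlation over 0.1.

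Members and lists were chosen with earlier results of these data known. Named besides the members are Myc, Igf2, Zhx2, Zbtb20, Yap1 and Alb, up to 4 tested genes per list past the threshold with the largest difference between groups, and the 3 most similar genes per member. Genes that share or overlap a member's sequence, Gm36026, Gm671, Krt8-ps and Mir675, members of a list at 0 reads and Cdh1 were named after their values were seen. Alternatives used edgeR 4.0.16 and DESeq2 1.42.0 on the recovered reads.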

Additional observations from a re-analysis of the deposited data

Results flagged for a closer look

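The methionine response of 5 of the 6 tested members differed between MYC high and MYC low cells by the interaction term of the limma fit, where 60.4% of all 12909 genes did. Each value is the log2 response with MYC high less the one with MYC low. Krt19 (1.26, adjusted p = 1.83e-21) and Afp (0.64, adjusted p = 0.00152) rose more in MYC high cells. Sox9 fell more there (−1.06, adjusted p = 6.61e-05). Krt18 fell in MYC high and rose in MYC low cells (−0.75, adjusted p = 2.28e-16). Krt8 rose slightly less in MYC high cells (−0.15, adjusted p = 0.00342).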

How the results depend on the processing

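Over 21 alternatives, 11 of them leaving out 1 library, the number of genes and of members past the threshold stayed within 1.5 times the reported one in each comparison, and 605 of 619 log2 values of members kept direction and call. Members past it numbered 4 to 7 over all alternatives and comparisons. Without a filter H19 was tested as well, and a minimum mean of 50 left out Krt7. With edgeR on the recovered reads, 9583, 9386, 9718, 7915 and 7757 genes passed, against 9600, 9232, 9787, 7666 and 7798, in the order MYC at 200 µM, MYC at 10 µM, methionine in MYC high, methionine in MYC low and interaction. Sox9 at 200 µM (−0.41) had an adjusted p of 0.0652 with no filter, where more genes are tested. Signs turned in 4 of the named log2 values. The Krt18 difference at 200 µM was 0.0075 with DESeq2 and −0.025 to 0.024 when leaving out 1 library. The Krt7 interaction was −0.26 with a pseudocount of 5 and −0.13 to 1.93 when leaving out 1 library. The Myc difference at 10 µM was 0.0081 with edgeR, 0.0056 with DESeq2 and −0.070 to 0.094 when leaving out 1 library. The Zbtb20 response of MYC low cells was −0.0072 with TMM scaling and −0.087 to 0.077 when leaving out 1 library. The cause was not tested. With the replicate block, members past the threshold numbered 5, 6, 6, 6 and 5 as reported, and genes 9495, 9214, 9668, 7653 and 7663, in the same order, so it changed no count by over 1.5 times. Numbers of replicates are only names here, since same-numbered libraries had deviations correlated at −0.049 to 0.026. Depth limits Krt7, H19, Gpc3 and Epcam.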

Other observations

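Gpc3 had no read, but other glypicans were present. Of 12 glypican and heparan sulfate genes 7 were tested, and 3 had no read (Gpc3, Gpc4 and Gpc5). In MYC high cells 6 were lower and 0 higher at 200 µM (median log2 −0.40), and 6 lower and 1 higher at 10 µM (median −0.74), where 37.6% and 35.8% of all genes were lower. Gpc1, the glypican of many epithelial tumours, stood at 5082 ± 236 normalized counts in MYC high libraries (SD, n = 2) and 10815 ± 179 in MYC low (SD, n = 3) at 200 µM, and at 2342 ± 121 and 11887 ± 46.8 at 10 µM (SD, n = 3 each). Ext1, which polymerizes heparan sulfate, was lower in MYC high cells at 10 µM (−1.92, SE 0.047, adjusted p = 1.06e-29). Gpc6 fell at 10 µM in MYC low cells (−1.25, SE 0.101, adjusted p = 2.17e-13) and less in MYC high cells (−0.29, SE 0.113, adjusted p = 0.0217). Notum, a lipase that inactivates Wnt proteins, was lower in MYC high cells at 10 µM (−1.05, SE 0.189, adjusted p = 6.32e-06).

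Vim, the mesenchymal filament protein, stood beside the keratins at a high level. It stood at 15963 ± 232 normalized counts in MYC high libraries (SD, n = 2) and 24954 ± 302 in MYC low (SD, n = 3) at 200 µM, and at 37040 ± 1021 and 33335 ± 182 at 10 µM (SD, n = 3 each). In MYC high cells it rose by 1.21 on the log2 scale at 10 µM (SE 0.029, adjusted p = 3.95e-30). Krt80, a type II keratin of differentiating epithelia, was lower in MYC high cells at 10 µM (−1.75, SE 0.134, adjusted p = 2.00e-14). Jup, plakoglobin of cell junctions, was lower in MYC high cells at 200 µM (−1.15, SE 0.040, adjusted p = 9.26e-25), and Krt10, a keratin of stratified epithelia, was higher there (1.04, SE 0.191, adjusted p = 8.61e-06). Of the 17 keratin, filament and junction genes 11 were tested, 4 of them members. Cdh1, the E-cadherin gene of this list, had 1 read over all libraries and was not tested. Of the tested genes, 9 rose and 1 fell at 10 µM in MYC low cells (median 0.42). Without the members these were 5 and 1 of 7, where 29.4% of all genes rose and 29.9% fell. In MYC high cells 5 rose and 4 fell (median 0.21), or 2 and 3 of 7 without the members, where 37.9% rose and 37.9% fell. Rbp4 fell at 10 µM in MYC low cells by 1.54 on the log2 scale (SE 0.041, adjusted p = 1.03e-27) and in MYC high cells by 1.06 (SE 0.046, adjusted p = 1.06e-21).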
